A study of Rattus norvegicus with 18 samples.

Results

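Col1a1, Col1a2 and Col3a1, the genes of the main fibrillar collagens of the heart, were followed across 18 hearts of 3-week-old male Wistar rats. They were chosen by identifier, ENSRNOG00000003897 for Col1a1, ENSRNOG00000011292 for Col1a2 and ENSRNOG00000003357 for Col3a1, and make up 3 of the 30560 genes in the deposited count table. All 3 passed the filter on low counts, which left 17009 genes for testing. The symbols came with the choice of identifiers. The RefSeq reference of 47357 genes lists symbols but 0 Ensembl identifiers, and the pairing was not checked against it.

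Exposure took place in gestation, through the dam. The vehicle group held 7 offspring. The CBD3 group held 6 offspring exposed to cannabidiol, a compound of the cannabis plant that does not intoxicate, at 3 mg/kg/day, and the CBD30 group 5 offspring exposed at 30 mg/kg/day. Which offspring shared a dam is not stated in the labels, so p-values take each heart as independent and would come out too small if hearts of 1 litter are alike. Bulk messenger RNA of the whole heart was sequenced, and fewer collagen-producing cells cannot be told apart from less collagen RNA in each cell. Samples are named by the code of their data column, such as 1.1 or 3.2, whose parts no label explains.

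Fibrillar collagens are triple helices of 3 chains that assemble into the load-bearing fibres outside the cell. Type I collagen is built from the chains of Col1a1 and Col1a2 together, while type III collagen contains only the chain of Col3a1 and lies in the same fibre network. In the heart both are made mainly by fibroblasts, and the network surrounds the muscle cells, carries force between them and sets the stiffness of the wall. Collagen is laid down as the heart grows after birth, and an excess of it is known as fibrosis.

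The sequence upstream of a collagen gene is shown where the RefSeq promoter table (build GRCr8) holds it. Of the 3 genes, 1 matched the table by symbol, Col1a2. The stretch lies at chr4:33518307-33518392 on the plus strand and begins 250 bases before the annotated start of the gene. The bases at that start are ATG, and whether it is the start of transcription or of translation was not checked. The stretch shown is the part of the window up to and including its TATAAA match, 86 bases in all. Capitals mark a CCAAT box, read on the opposite strand as ATTGG, and the TATA box.
Col1a2: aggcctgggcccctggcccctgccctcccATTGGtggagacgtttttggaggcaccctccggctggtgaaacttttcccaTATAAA
The first base of ATTGG is at position -221 and that of TATAAA at position -170, counted from the annotated start, and the matches do not overlap. Searched on both strands of 33469 RefSeq windows of 300 bases, CCAAT was present in 37.5% and TATAAA in 14.2%. Of 2 further motifs searched on both strands, GGGCGG (the GC box) was not found in the Col1a2 window and was present in 33.1% of windows. CAGAC, a core bound by Smad proteins, had 2 matches in the Col1a2 window, both on the opposite strand, and was present in 50.1% of windows. Such matches describe the letters of the window and are not evidence of binding.

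The 3 collagens were among the most abundant transcripts of the heart. Levels are given as CPM, counts scaled to a common library size with TMM factors. By mean CPM over the 18 hearts, Col3a1 ranked 36, Col1a1 ranked 62 and Col1a2 ranked 98 of 17009 genes. These ranks are not corrected for transcript length, so they do not order the molecules of the 3 genes against each other. Behind them stood 76709 to 221373 counts per library for Col3a1, 31646 to 113343 for Col1a1 and 22648 to 74827 for Col1a2, out of library totals of 44127009 to 89240727. At the lowest of these counts, counting error alone would give an SD of 0.0096 (log2) for Col1a2 and less for the other two genes. The SD between hearts of a group was larger, at 0.21 (log2) for Col1a2, 0.24 for Col1a1 and 0.17 for Col3a1. The counting error takes the counts as unadjusted reads, and what limited the comparisons was not tested.

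Col1a1 encodes the α1 chain of type I collagen. In vehicle hearts it ranged from 812 CPM (coded 1.2) through a median of 983 CPM to 1460 CPM (coded 1.1). In CBD3 hearts it ranged from 949 CPM (coded 1.1) through a median of 1064 CPM to 1536 CPM (coded 3.2). In CBD30 hearts it was 898 CPM (coded 3.2), 964 CPM (coded 2.1), 1135 CPM (coded 1.2), 1199 CPM (coded 1.1) and 1208 CPM (coded 4.2).
Only vehicle 1.1 and CBD3 3.2 lay above 1208 CPM, and all 5 CBD30 hearts fell within the vehicle range. Of the 6 CBD3 hearts, 5 lay within it and CBD3 3.2 above it.

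Col1a2 encodes the α2 chain that joins the Col1a1 product in type I collagen. Its vehicle values ran from 581 CPM (coded 1.2) through a median of 665 CPM to 964 CPM (coded 1.1). Its CBD3 values ran from 636 CPM (coded 1.2) through a median of 697 CPM to 964 CPM (coded 3.2). In CBD30 hearts it was 602 CPM (coded 3.2), 647 CPM (coded 2.1), 720 CPM (coded 1.2), 766 CPM (coded 1.1) and 804 CPM (coded 4.2).
The order of the CBD30 hearts was the same as for Col1a1, and the same vehicle and CBD3 hearts stood at the top.

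Col3a1 encodes the single chain of type III collagen. It ranged from 1969 CPM (coded 1.2) through a median of 2222 CPM to 2810 CPM (coded 1.1) in vehicle hearts. In CBD3 hearts it ranged from 2075 CPM (coded 1.2) through a median of 2263 CPM to 2907 CPM (coded 3.2). In CBD30 hearts it was 2059 CPM (coded 2.1), 2143 CPM (coded 3.2), 2393 CPM (coded 1.2), 2487 CPM (coded 4.2) and 2585 CPM (coded 1.1).
For each of the 3 genes the lowest heart of all 18 was vehicle 1.2, the highest was CBD3 3.2 and the next highest was vehicle 1.1. The highest heart held 1.89 times the level of the lowest for Col1a1, 1.66 times for Col1a2 and 1.48 times for Col3a1.

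**Figure D1:**
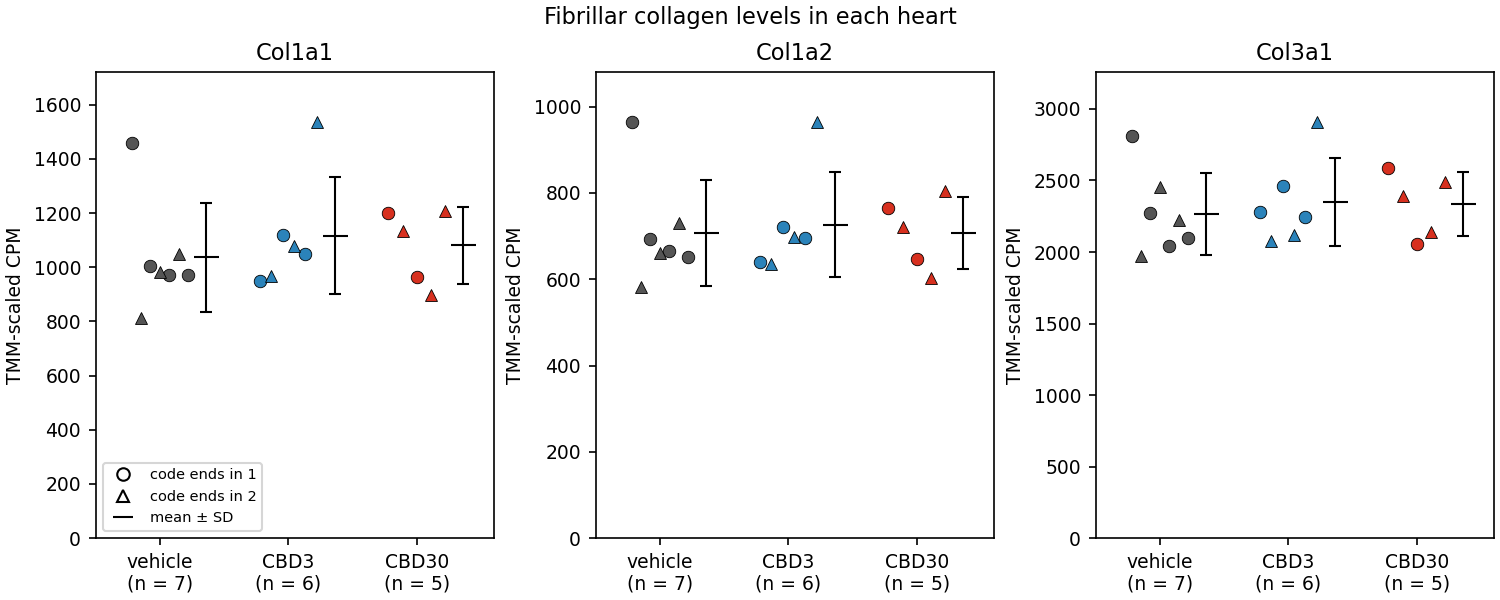
TMM-scaled CPM of Col1a1, Col1a2 and Col3a1 (vertical axes, from 0) in each heart of the vehicle, CBD3 and CBD30 groups, with circles for codes ending in 1, triangles for codes ending in 2, and the mean ± SD of each group to the right of its points. The groups overlap for each gene, with vehicle 1.1 and CBD3 3.2 standing above the others for Col1a1 (1460 and 1536 CPM) and Col1a2 (964 CPM in both).

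Set beside genes of like abundance, the collagens did not spread unusually widely. Among 107 other genes within 2-fold of the level of Col1a1, the median SD within groups was 0.25 (log2), and 43.9% had a lower SD than Col1a1. For Col1a2 28.9% of 204 such genes had a lower SD, and for Col3a1 11.8% of 34. Col3a1, with an SD of 0.17, was thus the steadiest of the 3 genes relative to genes of its own level. These shares are descriptions, since genes are not independent replicates.

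The comparison of CBD3 with vehicle addresses whether the lower gestational dose was followed by an altered collagen programme in the heart of male offspring. No collagen gene passed the test at this dose, and each group mean lay within the spread of the other. Col1a1 was at 1117 ± 215 CPM in CBD3 hearts (SD, n = 6) and 1036 ± 201 CPM in vehicle hearts (n = 7). The log2 change was 0.11 with an SE of 0.13 (edgeR quasi-likelihood test, adjusted p = 0.742). Col1a2 was at 726 ± 122 CPM against 707 ± 122 CPM, and the log2 change was 0.039 with an SE of 0.12 (edgeR, adjusted p = 0.903). Col3a1 was at 2349 ± 305 CPM against 2266 ± 288 CPM, and the log2 change was 0.051 with an SE of 0.11 (edgeR, adjusted p = 0.849).
For each gene, 4 of 6 CBD3 hearts lay above the vehicle median. The 95% intervals of the fold ran from 0.887 to 1.31 for Col1a1, from 0.863 to 1.22 for Col1a2 and from 0.890 to 1.21 for Col3a1.

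Over the whole table the CBD3 comparison called 0 of 17009 genes (0%) with edgeR at the threshold of 0.05. An unadjusted p under 0.05 was found for 8.92% of genes and for 0 of the 3 collagens. DESeq2 called 19 genes (0.109% of those it tested) and limma voom 0, again without the collagens. Groups that did not overlap in log2 CPM were found for 0.194% of genes and for 0 of the 3 collagens. The median log2 fold change was 0.051 over the 3 collagens and 0.012 over the 8483 genes whose mean reached 10 CPM. The sign moved with single hearts. Without CBD3 3.2 the log2 fold changes were -0.0050 for Col1a1, -0.059 for Col1a2 and -0.019 for Col3a1, and without vehicle 1.1 they were 0.21, 0.13 and 0.11. With both of these hearts left out they were 0.096, 0.031 and 0.040. Col1a2 was also below 0 without vehicle 1.2 (-0.0030), and Col1a2 and Col3a1 with library size only (-0.0097 and -0.00078).

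The comparison of CBD30 with vehicle asks the same of the higher dose. Again none of the 3 collagen genes passed the test. Col1a1 was at 1081 ± 141 CPM in CBD30 hearts (SD, n = 5), a log2 change from vehicle of 0.060 with an SE of 0.14 (edgeR, adjusted p = 0.841). Col1a2 was at 708 ± 83.2 CPM, a log2 change of 0.0023 with an SE of 0.13 (edgeR, adjusted p = 0.995). Col3a1 was at 2333 ± 225 CPM, a log2 change of 0.042 with an SE of 0.11 (edgeR, adjusted p = 0.861).
For each gene 3 of 5 CBD30 hearts lay above the vehicle median. The 95% intervals of the fold were 0.850 to 1.28 for Col1a1, 0.833 to 1.2 for Col1a2 and 0.877 to 1.21 for Col3a1, each within a range of less than 1.5-fold either way.

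The CBD30 comparison likewise called 0 of 17009 genes (0%) with edgeR. That count rested on vehicle 3.1, without which 267 genes were called (148 higher, 119 lower), the collagens not among them. An unadjusted p under 0.05 was found for 16.4% of genes and for 0 of the 3 collagens. DESeq2 called 134 genes (0.839% of those it tested), with the collagens at adjusted p = 0.793, 0.946 and 0.785 for Col1a1, Col1a2 and Col3a1, and limma voom called 0. Groups that did not overlap were found for 0.629% of genes and for 0 of the 3 collagens. The median log2 fold change was 0.042 over the 3 collagens and 0.0087 over the genes whose mean reached 10 CPM. Both comparisons use the same 7 vehicle hearts. With each of the 18 hearts left out in turn, the CBD30 log2 fold change ran from 0.0094 to 0.16 for Col1a1 and from 0.0032 to 0.10 for Col3a1. For Col1a2 it ran from -0.047 (without CBD30 4.2) to 0.092 and was below 0 in 8 of the 18. The highest value was that without vehicle 1.1 for each gene. With library size only, the values were -0.0040 for Col1a1, -0.059 for Col1a2 and -0.019 for Col3a1.

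Between the doses none of the 3 collagen genes passed the test either. The log2 fold change of CBD30 against CBD3 was -0.047 ± 0.15 for Col1a1, -0.036 ± 0.13 for Col1a2 and -0.0094 ± 0.11 for Col3a1 (± SE, with an edgeR adjusted p of 0.999 for each). The 95% intervals of the fold were 0.783 to 1.2, 0.806 to 1.18 and 0.841 to 1.17. Of the 5 CBD30 hearts, 3 lay above the CBD3 median for each gene, although the fitted change was below 0. The sign turned without CBD3 3.2, to 0.065, 0.062 and 0.061 for Col1a1, Col1a2 and Col3a1. It also turned without CBD30 3.2, to 0.013, 0.017 and 0.020. For Col3a1 it turned as well without CBD3 2.1 (0.0044) and without CBD30 2.1 (0.032). Between the doses edgeR called 0 of 17009 genes (0%), and an unadjusted p under 0.05 was found for 1.73% of genes and for 0 of the 3 collagens. DESeq2 called 1 gene (0.00411% of those it tested) and limma voom 0. Groups that did not overlap were found for 0.218% of genes and for 0 of the 3 collagens.

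**Figure D2:**
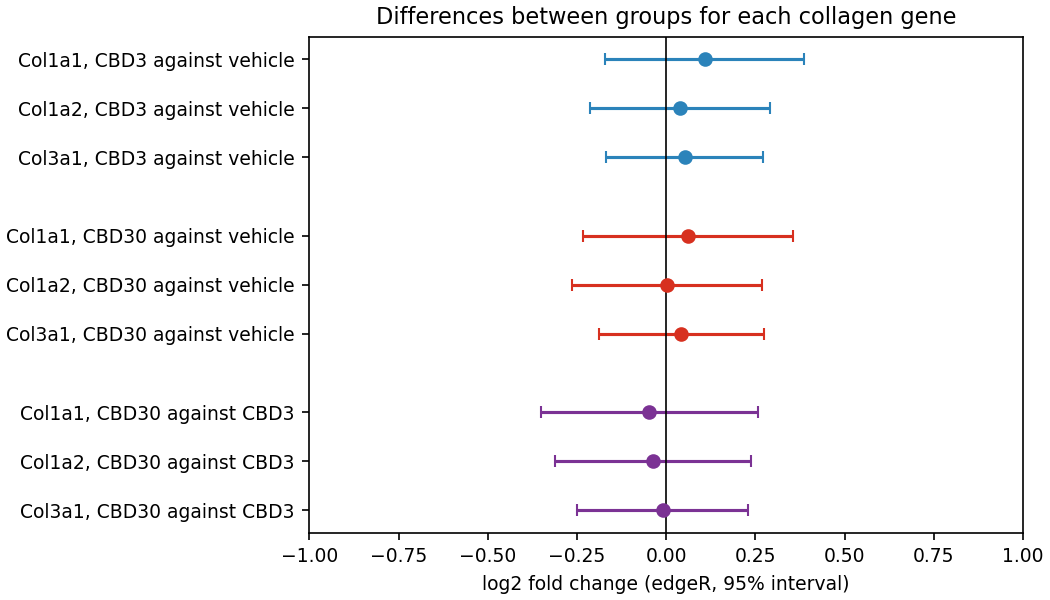
Log2 fold changes (horizontal axis) of Col1a1, Col1a2 and Col3a1 for CBD3 against vehicle, CBD30 against vehicle and CBD30 against CBD3, as points with 95% intervals from the edgeR fit of 18 hearts. All 9 intervals include 0, and the largest difference is 0.11 for Col1a1 in CBD3 against vehicle.

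**Figure D3:**
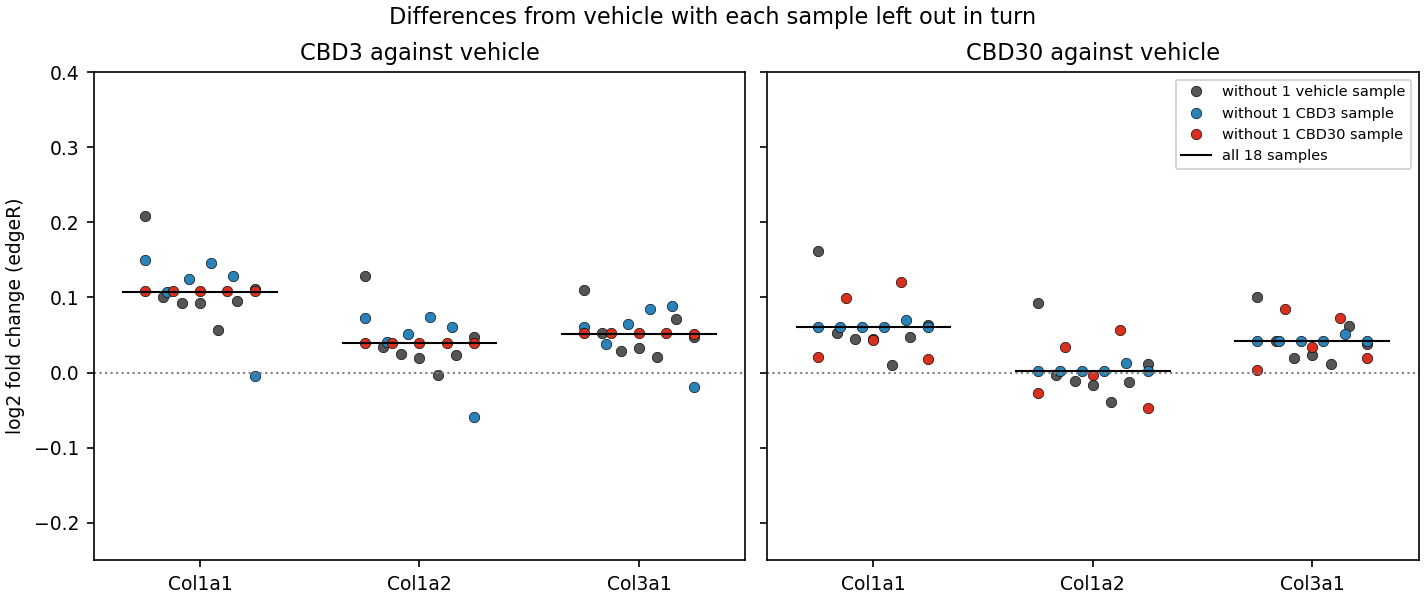
Log2 fold changes from vehicle (vertical axis) of each collagen when 1 of the 18 hearts is left out, coloured by the group of the heart left out, with the value over all hearts as a black line. For CBD3 the values of Col1a1 run from -0.0050 (without CBD3 3.2) to 0.21 (without vehicle 1.1).

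Samples whose code ends in 1 and in 2 could be compared separately. In codes ending in 1, vehicle hearts had 1102 ± 239 CPM of Col1a1 (SD, n = 4), CBD3 hearts 1039 ± 85.5 CPM (n = 3) and CBD30 hearts 1081 ± 166 CPM (n = 2). In codes ending in 2, vehicle hearts had 948 ± 123 CPM, CBD3 hearts 1194 ± 301 CPM and CBD30 hearts 1080 ± 162 CPM (SD, n = 3 each). The vehicle mean was the highest of the 3 groups in the first set and the lowest in the second.
The log2 fold change of CBD3 against vehicle was thus -0.082 ± 0.18 and 0.33 ± 0.21 for Col1a1 (SE), and -0.11 ± 0.16 and 0.22 ± 0.19 for Col1a2. For Col3a1 it was 0.017 ± 0.16 and 0.097 ± 0.18. For CBD30 against vehicle it was -0.012 ± 0.20 and 0.19 ± 0.21 for Col1a1, -0.057 ± 0.18 and 0.11 ± 0.19 for Col1a2, and 0.026 ± 0.18 and 0.079 ± 0.18 for Col3a1. With the groups accounted for, codes ending in 2 differed from codes ending in 1 by -0.016 for Col1a1, -0.012 for Col1a2 and -0.011 for Col3a1 (log2). With edgeR, 1 of 17009 genes had an unadjusted p under 0.05 for this difference. That is far below the share of 0.05 expected where no gene differs between the sets. Whether the counts had been evened out between the sets before deposit was not tested. Tested directly, the dose difference between the sets was not past the threshold for any collagen (edgeR interaction, adjusted p = 0.563, 0.597 and 0.899 for CBD3 and 0.700, 0.726 and 0.890 for CBD30, in the order Col1a1, Col1a2, Col3a1). Over all 17009 genes this interaction test called 0 for CBD3 and 1 for CBD30. An unadjusted p under 0.05 was found for 1535 and 2187 genes, the collagens not among them.

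The clearest structure among the collagens was their common variation from heart to heart. With the group means removed, log2 CPM of Col1a1 and Col1a2 had a Pearson correlation of 0.993 and a Spearman correlation of 0.979 over 18 hearts (permutation p = 1e-05 for both, the smallest that 100000 permutations can give, adjusted p = 3e-05 over 3 pairs). Col1a1 and Col3a1 had a Pearson correlation of 0.898 and a Spearman correlation of 0.847 (permutation p = 7e-05 and 8e-05, adjusted 0.000105 and 0.00012). For Col1a2 and Col3a1 they were 0.889 and 0.814 (permutation p = 0.00016 and 0.00033, adjusted 0.00016 and 0.00033).
Without the 2 hearts farthest from the median, Pearson's r was 0.980, 0.762 and 0.739 for the 3 pairs. Within codes ending in 1 it was 0.994, 0.946 and 0.939, and within codes ending in 2 0.992, 0.927 and 0.897 (n = 9 each).

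The pair that builds type I collagen was closer to each other than to any other gene. Of 17008 other tested genes, Col1a2 had the highest Pearson correlation with Col1a1, and Col1a1 the highest with Col1a2. Col3a1 ranked 7 among the genes most like Col1a1 and 7 among those most like Col1a2. Among the genes most like Col3a1, Col1a1 ranked 4 and Col1a2 ranked 6. The median correlation of all genes with Col1a1 was -0.053. These ranks are descriptions of 18 libraries that all genes share.

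**Figure D4:**
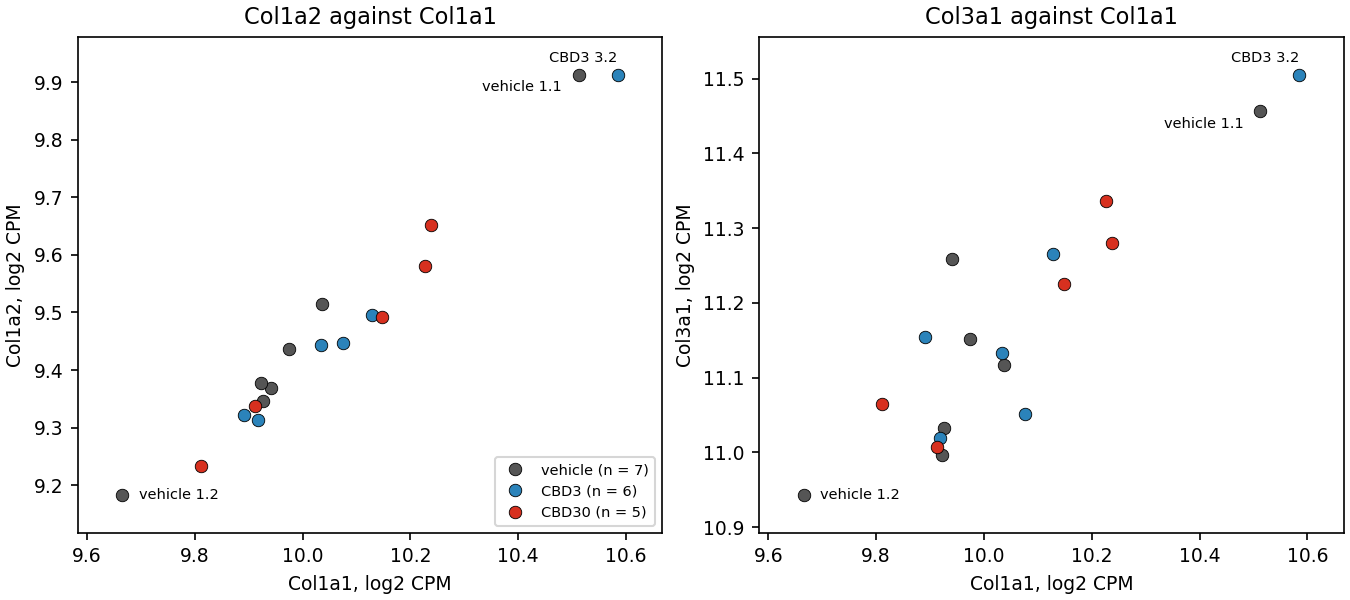
Log2 CPM of Col1a2 (left) and Col3a1 (right) against log2 CPM of Col1a1 in each heart, coloured by group. Col1a2 follows Col1a1 closely (Pearson correlation 0.993 with group means removed), Col3a1 more loosely (0.898), and vehicle 1.1, CBD3 3.2 and vehicle 1.2 mark the ends of the range.

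Among 13524 other genes whose mean reached 1 CPM, 31 had a mean correlation of at least 0.8 with the 3 collagens and 3 of at least 0.9. The most alike were ENSRNOG00000010841, with a mean Pearson correlation of 0.904, and ENSRNOG00000027839, with 0.903, both over 18 hearts. ENSRNOG00000010841 averaged 2.78 CPM in the 7 vehicle hearts (SD 1.22), 3.76 CPM in the 6 CBD3 hearts (SD 1.48) and 3.50 CPM in the 5 CBD30 hearts (SD 1.03). Its log2 fold changes from vehicle were 0.43 ± 0.26 and 0.33 ± 0.27 (SE; edgeR adjusted p = 0.561 and 0.541). ENSRNOG00000027839 was at 4.09 ± 0.876, 3.96 ± 0.731 and 4.2 ± 0.436 CPM in the vehicle, CBD3 and CBD30 groups. Neither identifier is paired with a symbol in the sources used here.

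Library measures were set beside the collagen levels in 9 correlations. With the library total none of the 3 genes had a Pearson correlation above 0.072 in size (permutation p = 0.797 to 0.909). With the first principal component of all tested genes it was -0.33, -0.32 and -0.31 for Col1a1, Col1a2 and Col3a1 (permutation p = 0.222 to 0.243), negative within codes ending in 1 (-0.53, -0.52 and -0.68) and positive within codes ending in 2 (0.39, 0.35 and 0.43). With the share of counts held by the 10 most abundant genes, Col3a1 had a Pearson correlation of -0.61 and a Spearman correlation of -0.64 (permutation p = 0.0109 and 0.00919, adjusted 0.0698 and 0.0702 over the 9). Col1a1 was at -0.58 and -0.56 (permutation p = 0.0155 and 0.0156, adjusted 0.0698 and 0.0702) and Col1a2 at -0.54 and -0.45 (permutation p = 0.0323 and 0.0735, adjusted 0.0969 and 0.221). Hearts with a larger share in the top 10 genes thus tended to have lower collagen levels, short of the threshold after adjustment, and the part of this share in the common variation was not tested. Without the 2 hearts farthest from the median share, r was -0.56, -0.52 and -0.62 for Col1a1, Col1a2 and Col3a1. Within codes ending in 1 it was -0.46, -0.44 and -0.63, and within codes ending in 2 -0.52, -0.47 and -0.71.

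Because Col1a2 followed Col1a1 so closely, the ratio of their counts within a library, which does not depend on scaling, was narrower than either level. Over the 18 hearts it ran from 0.628 to 0.716, a span of 1.14-fold, where Col1a1 itself spanned 1.89-fold. The SD within groups was 0.038 (log2), against 0.013 from counting error at the lowest counts. The ratio compares read counts and not molecules, since the lengths of the transcripts differ.

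The Col1a2 to Col1a1 ratio had a slightly lower mean in both cannabidiol groups than in vehicle, a difference that did not pass the threshold once adjusted. In vehicle hearts it ran from 0.660 (coded 1.1) through a median of 0.686 to 0.716 (coded 1.2). In CBD3 hearts it ran from 0.628 (coded 3.2) through a median of 0.652 to 0.674 (coded 1.1). In CBD30 hearts it was 0.635 (coded 1.2), 0.639 (coded 1.1), 0.666 (coded 4.2), 0.670 (coded 3.2) and 0.672 (coded 2.1).
The groups overlapped, but 0 of 6 CBD3 and 0 of 5 CBD30 hearts reached the vehicle median, and 4 and 2 of them lay below the lowest vehicle heart. The mean ratio of the 7 vehicle hearts was 0.684 (SD 0.019), that of the 6 CBD3 hearts 0.652 (SD 0.016) and that of the 5 CBD30 hearts 0.656 (SD 0.018).
The ratio in CBD3 was on average 0.954 times that in vehicle (log2 difference -0.068, exact two-sided permutation p = 0.00932). In CBD30 it was 0.959 times that in vehicle (log2 difference -0.060, exact two-sided permutation p = 0.0265). After adjustment over the 9 ratio tests neither passed the threshold (adjusted p = 0.0839 and 0.119), and both rest on the same 7 vehicle hearts. Between the doses the difference was 0.0084 (exact two-sided permutation p = 0.714, adjusted 0.804). How often other pairs of genes differed as much in ratio was not tested. Among single genes, an unadjusted edgeR p under 0.05 against vehicle was found for 8.92% (CBD3) and 16.4% (CBD30).

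The mean ratio was below that of vehicle in both sets of codes, without passing the threshold in either. In codes ending in 1 the difference from vehicle was -0.032 for CBD3 and -0.045 for CBD30 (log2; exact two-sided permutation p = 0.257 and 0.267), and in codes ending in 2 it was -0.11 and -0.081 (exact two-sided permutation p = 0.1 for each, the smallest that 3 hearts against 3 allow). The ratio was not independent of the level, since within groups log2 Col1a2 had a slope of 0.88 on log2 Col1a1. Compared at a common level of Col1a1, a step added after the values were seen, the differences from vehicle were -0.055 for CBD3 and -0.051 for CBD30 (two-sided permutation p = 0.00408 and 0.0152, not adjusted). The slope was fitted with the groups known and held fixed in the permutations, so these p-values are approximate. Without CBD3 3.2 the CBD3 difference in ratio was -0.057 (exact two-sided permutation p = 0.0215, adjusted 0.119), and only without CBD3 1.1 did it pass the threshold (-0.078, exact permutation adjusted p = 0.0455). The unadjusted p of the CBD30 difference rose above 0.05 when any of 6 hearts was left out, to 0.0818 without CBD30 1.2, 0.0788 without CBD30 1.1 and 0.0519 to 0.0563 without vehicle 1.2, 2.1, 3.1 or 3.2 (exact two-sided permutation tests).

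The ratios of type III to type I transcripts varied more. The Col3a1 to Col1a1 count ratio averaged 2.21 in the 7 vehicle hearts (SD 0.197), 2.12 in the 6 CBD3 hearts (SD 0.179) and 2.17 in the 5 CBD30 hearts (SD 0.126). It was lowest in CBD3 3.2 (1.89) and vehicle 1.1 (1.92), the hearts with the most collagen, and highest in vehicle 2.2 (2.49). The Col3a1 to Col1a2 count ratio was 3.23 ± 0.264, 3.25 ± 0.211 and 3.31 ± 0.181 (SD) in the same groups. None of the 6 comparisons of these ratios between groups stood out from the spread (exact two-sided permutation p = 0.423 to 0.853, adjusted p = 0.804 to 0.853 over the 9 ratio tests).

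**Figure D5:**
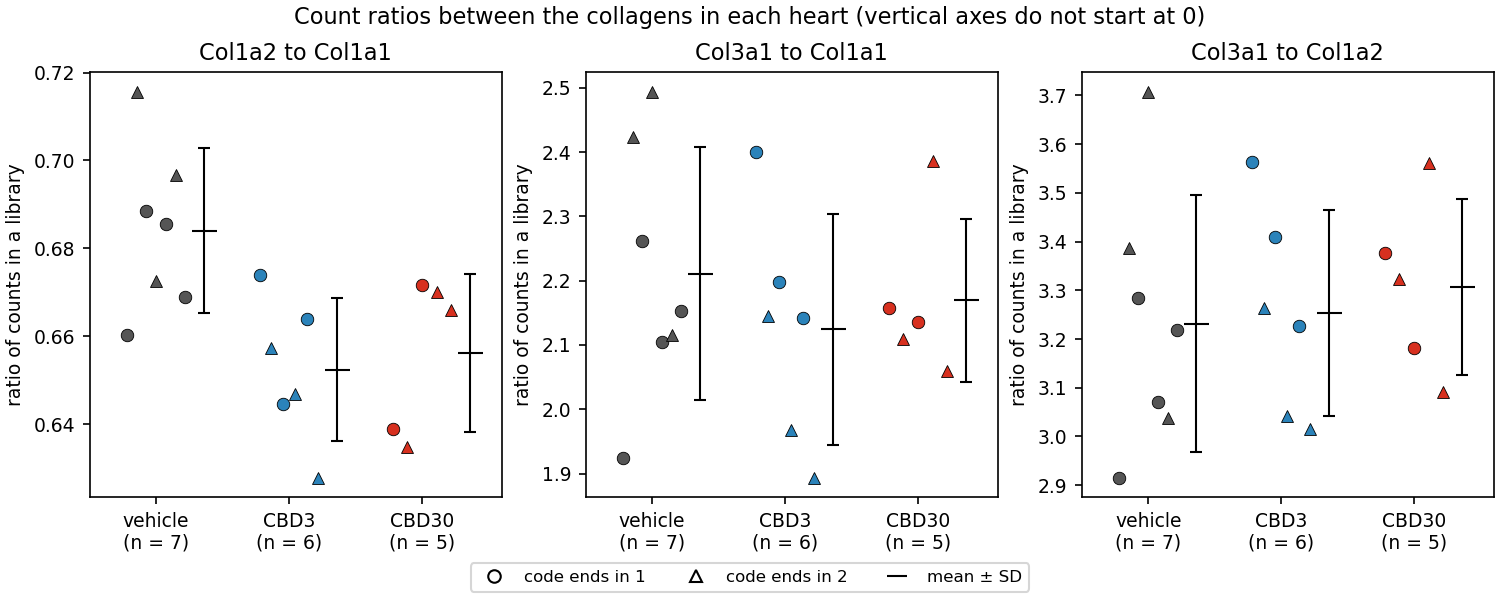
Ratio of counts within a library (vertical axes, not starting at 0) for Col1a2 to Col1a1, Col3a1 to Col1a1 and Col3a1 to Col1a2 in each heart, with circles for codes ending in 1, triangles for codes ending in 2, and the mean ± SD of each group to the right of its points. The Col1a2 to Col1a1 ratio averages 0.684 in vehicle, 0.652 in CBD3 and 0.656 in CBD30 hearts, with overlap between the groups.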

How the data were processed

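Bulk RNA sequencing of 18 rat hearts was analysed from the authors' deposited table of whole-number counts per Ensembl gene. Per the submitters' processing notes, featureCounts and edgeR were used, with the build mRatBN7.2. Per the labels' protocols, messenger RNA was enriched and a stranded kit was used. Not given in the sources used here are the aligner, the annotation release and whether counts were adjusted before deposit. Of the vehicle columns, 4 (coded 1.1, 2.1, 3.1 and 4.1) are each named in the descriptions of more than 1 vehicle sample. They could not be tied to 1 replicate number and were used as vehicle samples only. All 46 pairs of libraries of 1 group differed by more than sampling noise (chi-square of at least 36.0 per degree of freedom).

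Of 30560 genes, 17009 passed filterByExpr (minimum count 10, minimum total 15). All samples entered 1 fit with TMM scaling and the quasi-likelihood test of edgeR 4.0.16 (R 4.3.3), with Benjamini-Hochberg adjustment over all genes tested and a threshold of 0.05. Log2 CPM used a prior count of 2. Standard errors were derived from the F statistic. Ratios used exact permutation tests over samples, and correlations 100000 permutations within groups. The pipeline was tested on simulated data. Alternatives were other scalings, no filter, other sample sets, DESeq2 1.42.0, limma voom (limma 3.58.1), a replicate block and leaving out each sample.

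The genes, lists and tests were chosen with earlier results of these data known. Besides the 3 collagens, the rule named the 2 genes most correlated with them. Lists of other collagen pathway genes and of heart cell markers, and with them a check of the tissue, needed symbols that the sources used here do not pair with the identifiers, and were not analysed here.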

Additional observations from a re-analysis of the deposited data

Results flagged for a closer look

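In 18 sets of 5 to 7 hearts (the 3 collagen levels and the 3 ratios in each group), 4 held a heart far from the rest, where chance gives about 1 set in 20. The sets are not independent, because the collagens vary together. Vehicle 1.1 was at 1460 CPM of Col1a1 against 1050 CPM in the nearest other vehicle heart, and at 964 CPM of Col1a2 against 732 CPM. CBD3 3.2 was at 1536 CPM of Col1a1 against 1120 CPM in the nearest other CBD3 heart, and at 964 CPM of Col1a2 against 722 CPM. With both hearts left out, an alternative added after the values were seen, the log2 fold changes of Col1a1, Col1a2 and Col3a1 were 0.096, 0.031 and 0.040 for CBD3 against vehicle and 0.16, 0.092 and 0.10 for CBD30 against vehicle, and none passed the threshold (edgeR adjusted p = 0.486 to 0.966).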

How the results depend on the processing

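No alternative brought a collagen gene past the threshold (adjusted p = 0.229 to 1 over all fits run), and signs of such small differences changed often. The cause was not tested for any of these changes. With library size only, log2 fold changes were -0.0097 (Col1a2) and -0.00078 (Col3a1) for CBD3 and -0.0040, -0.059 and -0.019 (Col1a1, Col1a2, Col3a1) for CBD30. In codes ending in 1 they were -0.082 and -0.11 (Col1a1, Col1a2) for CBD3, -0.012 and -0.057 for CBD30, and 0.071, 0.057 and 0.0094 (Col1a1, Col1a2, Col3a1) between doses. Between doses, Col3a1 was at 0.032 with vehicle 1.1, vehicle 2.1 and CBD30 2.1 left out together, the 3 hearts with the most extreme scores on the first principal component, and the 3 genes were at 0.065, 0.062 and 0.061 without vehicle 1.1 and CBD3 3.2. Genes called numbered 19, 134 and 1 with DESeq2 for CBD3, CBD30 and between doses, and 1 between doses with only those groups fitted.

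Whether hearts of the same replicate number share anything else is not stated in the titles that give the numbers. Deviations of same-numbered CBD3 and CBD30 hearts correlated at -0.077 to 0.31, and those of same-numbered vehicle and treated hearts at -0.20 to -0.035. Of 5 CBD3 hearts, 3 correlated best with the CBD30 heart of their own number. With a replicate block over the 14 numbered hearts, log2 fold changes of Col1a1, Col1a2 and Col3a1 were 0.56, 0.44 and 0.23 for CBD3, 0.60, 0.49 and 0.29 for CBD30, and 0.048, 0.044 and 0.056 between doses, with 0 genes called in each. Only vehicle 1.2 and vehicle 2.2 share a number with treated hearts, so the differences from vehicle in this fit rest on these vehicle hearts. Vehicle 1.2 was the lowest of all hearts for each gene, and vehicle 2.2 shares its number with CBD3 3.2, the highest. Unadjusted p-values with the block were 0.0050 and 0.012 (Col1a1, Col1a2) for CBD3 and 0.0049 and 0.011 for CBD30 (edgeR, adjusted p = 0.320, 0.346, 0.229 and 0.275), the only fits in which a collagen had an unadjusted p under 0.05. Over all 17154 genes tested with the block, 1953 (CBD3) and 2226 (CBD30) had an unadjusted p under 0.05. Without the block the same 14 hearts gave 602 and 1224 such genes. Their log2 fold changes of Col1a1, Col1a2 and Col3a1 were then 0.25, 0.15 and 0.096 for CBD3 and 0.20, 0.12 and 0.086 for CBD30.

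Leaving out each heart gave -0.0050 to 0.21, -0.059 to 0.13 and -0.019 to 0.11 (Col1a1, Col1a2, Col3a1) for CBD3, 0.0094 to 0.16, -0.047 to 0.092 and 0.0032 to 0.10 for CBD30, and -0.090 to 0.065, -0.086 to 0.062 and -0.049 to 0.061 between doses. Genes called for CBD30 ran from 0 to 267 (267 without vehicle 3.1, 1 without CBD30 1.1), and the others stayed at 0.

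Differences in log2 ratio with each heart left out were, for Col1a2 to Col1a1, -0.078 to -0.057 (CBD3), -0.068 to -0.048 (CBD30) and -0.0026 to 0.020 (between doses). For Col3a1 to Col1a1 they were -0.093 to -0.025, -0.059 to 0.0054 and -0.0021 to 0.069, and for Col3a1 to Col1a2 -0.016 to 0.045, 0.0083 to 0.069 and -0.0029 to 0.051. In codes ending in 1 the Col1a2 to Col1a1 ratio differed by -0.013 between doses, Col3a1 to Col1a1 by 0.091 (CBD3), 0.027 (CBD30) and -0.064 (between doses), and Col3a1 to Col1a2 by -0.052 between doses. In codes ending in 2, Col3a1 to Col1a2 differed by -0.12 (CBD3) and -0.020 (CBD30). With those 3 hearts left out, Col1a2 to Col1a1 differed by -6.95e-05 between doses and Col3a1 to Col1a2 by -0.012 for CBD3. Pearson correlations between the genes, with each heart left out, stayed within 0.989 to 0.994 (Col1a1 and Col1a2), 0.854 to 0.933 (Col1a1 and Col3a1) and 0.841 to 0.935 (Col1a2 and Col3a1).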
